A study of Mus musculus with 18 samples.

Results

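The 7 genes examined here carry bile acids through the intestinal epithelium or export conjugates from it, and were followed in sorted crypt cells. They are Slc10a2, Fabp6, Slc51a, Slc51b, Fgf15, Abcc2 and Abcc3. They were taken by symbol, 7 of the 43346 genes in the count table, and all 7 were among the 26717 genes with a mean count above 0 that were tested. The study asked how cells that differ in Lgr5 level, a marker of crypt base stem cells, compare within and between the small intestine (SI) and the large intestine (LI). RNA was sequenced from 18 libraries of live EPCAM+ cells, in 6 groups of 3 replicates. Each group was one intestinal site and one GFP level: high (centre), medium (border) or low (row >3, which the study places above the Lgr5+ zone). The names of position are those of the study, and the sort measured GFP and not position. All mice were untreated C57BL/6 animals of 8 to 20 weeks per the labels (the methods give a wider range) that carry the allele labelled Lgr5_eGFP_Iris_creERT2, a knock-in that puts GFP and a tamoxifen-inducible Cre under the Lgr5 locus. Expression of this allele is patchy between crypts, so GFP reports the Lgr5 level only where the allele is active. The labels give neither the segment of the SI or LI nor the mouse behind a replicate number, so p-values measure the spread between libraries.

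Bile acids are made in the liver, secreted into the gut and taken up again mainly by absorptive cells of the distal small intestine. There Slc10a2 takes conjugated bile acids in at the apical membrane, Fabp6 carries them through the cytosol, and the Slc51a and Slc51b proteins form the heteromeric exporter of the basolateral membrane. Bile acids bind the nuclear receptor encoded by Nr1h4 (FXR), which works with Rxra and is known to induce Fabp6, both Slc51 genes and Fgf15, a hormone that reaches the liver and lowers bile acid synthesis. Abcc2 and Abcc3 are ATP-driven pumps for glucuronide, sulphate and glutathione conjugates, at the apical and the basolateral membrane respectively.

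The bases before the start sites of 5 of the genes, from the RefSeq promoter table (build GRCm38.p6), are printed because 4 of these genes passed the same test between SI cells and the fifth differed between the sites at each level. Each is written 5′ to 3′ on the strand of its gene and stops before the more upstream of the RefSeq and GENCODE starts. Capitals mark matches, on either strand, to 5 motifs. The hexamer of nuclear receptor sites was searched as AGGTCA and that of CDX factors as TTTATG. Sites of factors such as Gata4 were searched as AGATAA, and the core of HNF4A sites as CTTTGNNCT. The fifth was the inverted repeat that FXR binds with Rxra, which is the nuclear receptor hexamer and its reverse complement with 1 base between them, with up to 2 mismatches allowed. The inverted repeat was added to the search after the sequences had been seen. The stretches are Fabp6 at chr11:43601563-43601812, Slc10a2 at chr8:5105352-5105537, Slc51a at chr16:32487880-32488129 and Slc51b at chr9:65422956-65423023, all on the minus strand, and Abcc2 at chr19:43782058-43782191 on the plus strand.
Fabp6: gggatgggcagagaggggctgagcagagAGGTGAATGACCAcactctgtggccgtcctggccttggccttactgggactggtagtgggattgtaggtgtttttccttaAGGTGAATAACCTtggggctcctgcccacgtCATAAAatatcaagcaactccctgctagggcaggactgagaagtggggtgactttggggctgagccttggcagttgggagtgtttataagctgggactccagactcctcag
Slc10a2: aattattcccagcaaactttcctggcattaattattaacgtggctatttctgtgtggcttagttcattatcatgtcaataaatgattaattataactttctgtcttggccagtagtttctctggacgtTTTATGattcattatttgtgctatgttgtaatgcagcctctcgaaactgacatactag
Slc51a: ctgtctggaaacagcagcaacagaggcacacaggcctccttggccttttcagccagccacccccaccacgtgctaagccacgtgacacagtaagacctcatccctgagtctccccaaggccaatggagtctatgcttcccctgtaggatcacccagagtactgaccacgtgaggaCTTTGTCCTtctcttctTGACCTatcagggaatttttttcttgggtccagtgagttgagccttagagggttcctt
Slc51b: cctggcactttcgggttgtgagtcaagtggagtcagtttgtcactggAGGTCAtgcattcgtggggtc
Abcc2: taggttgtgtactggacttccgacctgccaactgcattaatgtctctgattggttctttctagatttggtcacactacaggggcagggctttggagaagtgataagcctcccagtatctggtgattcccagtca

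The Fabp6 stretch held 2 matches to the inverted repeat, AGGTGAATGACCA starting 222 bases and AGGTGAATAACCT starting 142 bases before the RefSeq start. Such a match was present in 1.14% of 32851 RefSeq promoter windows of 300 bases. Fabp6 also held CATAAA, the reverse of the CDX motif, as did Slc10a2 in the forward direction, against 11.9% of windows. Slc51a and Slc51b each held the hexamer AGGTCA or its reverse (16.3% of windows), and Slc51a held the HNF4A core (6.55% of windows). The GATA motif, present in 11.2% of windows, was not among the letters of these 5 windows, and in Abcc2 the one match, AGGTCA starting 49 bases before the RefSeq start, lies past the printed bases. These matches describe letters and not sites of binding. Fgf15 and Abcc3 are given by name only.

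Total counts ranged from 8312093 to 31940965 per library, and values below are the authors' normalised counts, which are read counts divided by one size factor per library. Lgr5 fell with the sort gate at each site, to 28.1 to 280 in SI row >3 cells from 2434 to 5252 in SI centre cells, and to 134 to 466 from 2176 to 2575 in the LI. The SI border library of replicate 3 stood apart with an Lgr5 value of 157, against 1610 and 2028 in the other border libraries. The 3 SI libraries of replicate 3 also held Car1, a carbonic anhydrase of LI epithelium, at 1668, 22796 and 38981 in centre, border and row >3 cells, where the other SI libraries held at most 215. Gata4, a transcription factor of the SI proximal to the ileal end, was nevertheless at 130 to 148 in those 3 libraries. The SI markers Ccl25 and Abcg5 were at 1569 to 1969 and 351 to 441 there, against at most 276 and 3.72 in the LI. Onecut2, a further SI marker, was at 0, 0 and 3.12 there and at 11.8 to 36.3 in the other SI libraries. LI libraries held Onecut2 at 0 to 24.7. The LI marker Cldn8 was highest in replicate 3 in SI centre and border cells (115 and 53.6). In SI row >3 cells Cldn8 was at 95.2 in replicate 3, against 106 in replicate 1. Replicate 2 libraries of both sites held the Y-linked gene Ddx3y at 776 to 1067, and all others at most 1.18. The 4 epithelial markers (Epcam, Cdh1, Krt8 and Cldn7) were present in each library, and the 5 stromal markers summed to at most 197 and the 5 immune markers to at most 590.

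**Figure D1:**
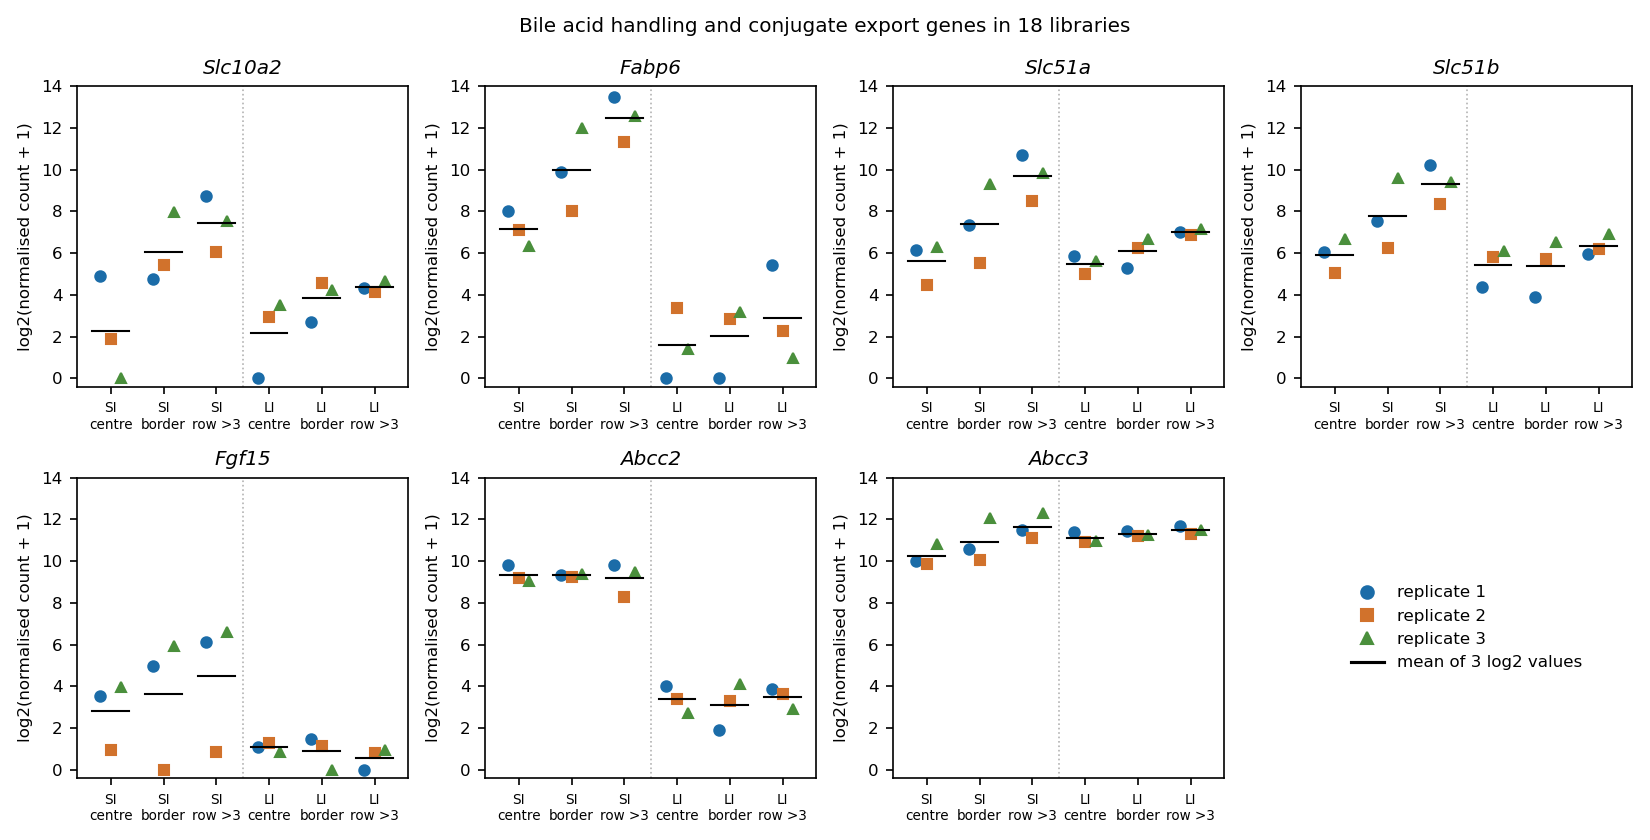
Each panel shows 1 gene, with the 6 groups on the horizontal axis and log2(normalised count + 1) on the vertical axis. Points are libraries, coloured by replicate number, and bars are means of the 3 log2 values. Fabp6 and the Slc51 genes climb from centre to row >3 in the SI, Abcc2 separates the sites at each level, and Fgf15 is near 0 in SI replicate 2.

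Between the sites, the apical pump Abcc2 and the carrier Fabp6 were the genes that most often differed, and their SI excess was large. In centre cells 1 of the 7 genes passed the test, Abcc2, which was higher in the SI. Over all genes tested, 1.99% were called in this comparison in either direction and 1.19% as higher in the SI. In border cells Abcc2 and Fabp6 were higher in the SI, 2 of 7, where 1.75% of all genes were called and 1.15% as higher. In row >3 cells Abcc2, Fabp6, Fgf15 and Slc10a2 were higher, 4 of 7, where 4.09% of all genes were called and 2.76% as higher. None of the 7 was called lower in the SI in these fits. The median log2 fold change of the 7 was 0.77, 2.90 and 3.46 in centre, border and row >3 cells, against a median of 0 over all genes tested. These 3 comparisons use different libraries, so no group is shared between them. They are not independent, since libraries of equal replicate number correlated across levels, at 0.358 to 0.783 within the SI and 0.444 to 0.684 within the LI. A call is an adjusted p under 0.05 (Benjamini-Hochberg) in the quasi-likelihood test of edgeR.

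Between the Lgr5 levels of the SI, the uptake transporter, the carrier and both exporter subunits rose together. Fabp6, Slc10a2, Slc51a and Slc51b were higher in row >3 than in centre cells, 4 of 7 genes. In this comparison 13.2% of all genes tested were called and 7.35% as higher, and the median log2 fold change was 3.47 for the 7 genes and 0 for all genes. Equal replicate numbers paired the libraries within a site, and with the replicate as a block Fgf15 and Abcc3 were called as well, at log2 fold changes of 2.65 and 1.41 (adjusted p = 0.00032 and 1.04e-06, edgeR's quasi-likelihood test), so that 6 of 7 passed where 22.8% of all genes did.

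From SI centre to SI border cells 0 of 7 genes were called by edgeR, with 4 at an unadjusted p under 0.05 and 1 (Slc51a) called by DESeq2, and the share of all genes called was 0.0112%. Over all genes, 2399 of the 26717 tested had an unadjusted p under 0.05. The share called by DESeq2 was 0.785% (209 of 26617). With the replicate block 4 were called in this comparison, namely Slc10a2 at a log2 fold change of 3.55, Slc51b at 2.36, Slc51a at 2.34 and Abcc3 at 0.70 (adjusted p = 0.0213, 0.035, 0.0495 and 0.0171), where 2.32% of all genes were called. Without the border library of replicate 3, which has the low Lgr5 value, the unblocked values for these 4 genes were 1.64, 0.87, 0.71 and 0.013, and none was called.

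In the LI the 7 genes were not called between levels, except that Slc51a was called between row >3 and centre cells with only the groups compared (log2 1.54, adjusted p = 0.046). In that fit 1.03% of all genes were called (243 of 23630). The border minus centre comparison had 0 of 7 calls, 0 at an unadjusted p under 0.05 and 0 by DESeq2, with 0% of all genes called (368 at an unadjusted p under 0.05, and 0 by DESeq2). The row >3 minus centre comparison likewise had 0 of 7 calls, where 0.0187% of all genes were called. At an unadjusted p under 0.05 there were 0 of the 7 and 1859 of the 26717 genes tested. By DESeq2 the calls were 0 of the 7 and 82 of 26617 genes. The replicate block left 0 of 7 called, where the share of all genes was 2.59% (692 of 26717).

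Whether a change between levels differs between the sites was tested as an interaction. For border minus centre edgeR and DESeq2 each called 0 of the 7 genes, and 0 had an unadjusted p under 0.05. Of all genes 0% were called, 708 had an unadjusted p under 0.05, and DESeq2 called 2. For row >3 minus centre edgeR and DESeq2 again called 0 of 7, and 2 genes, Slc51a and Slc51b, had an unadjusted p under 0.05, of 0.0465 and 0.0437 (edgeR, adjusted p = 0.733 and 0.717). Of all genes 0% were called, 1800 had an unadjusted p under 0.05, and DESeq2 called 151. The rise of the exporter subunits from centre to row >3 thus passed the test in the SI and not in the LI, and the difference between the sites was not called. With the replicate block the interaction of Abcc3 was called, at a log2 difference of 1.02 (adjusted p = 0.0143), as were 2.32% of all genes.

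**Figure D2:**
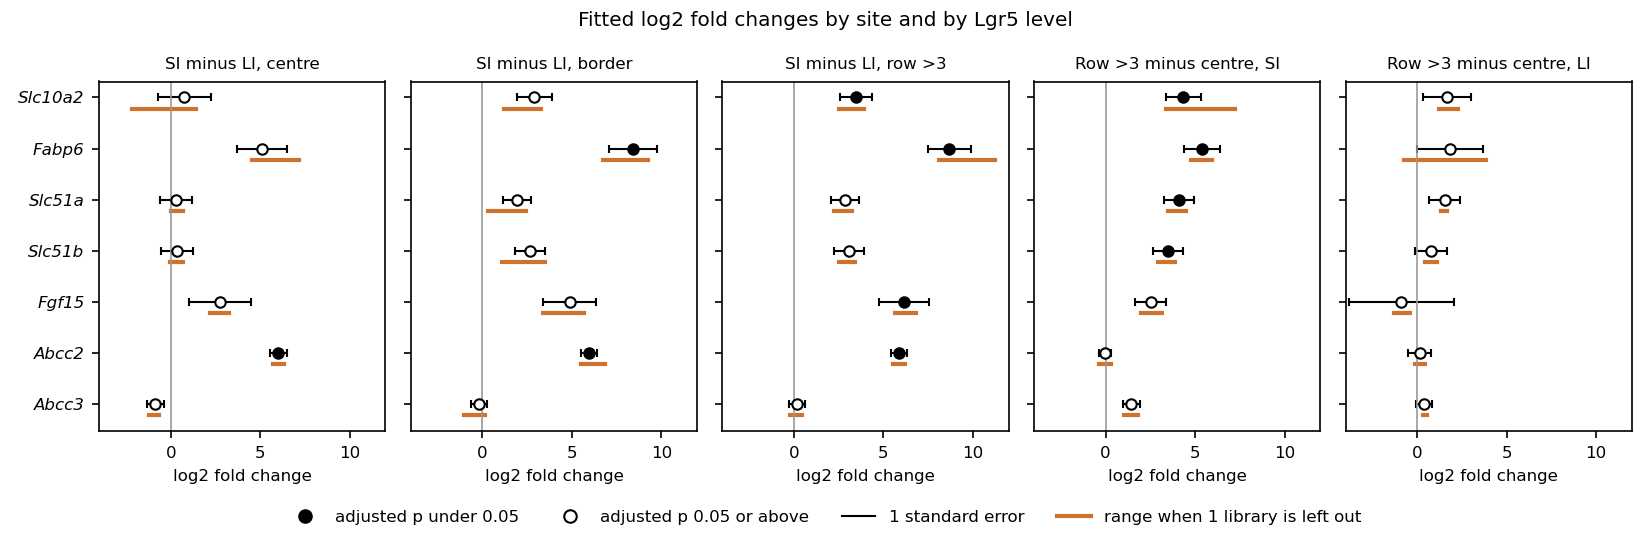
Each panel shows 1 comparison, with the log2 fold change on the horizontal axis and the genes down the side. Circles are fitted values with 1 standard error, filled where the adjusted p is under 0.05, and the orange lines span the values when 1 library is left out. Abcc2 is filled in the 3 site comparisons and sits at 0 between levels, and the line of Slc10a2 in centre cells crosses 0.

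Slc10a2 (ENSMUSG00000023073, chr8:5083219-5105351 on GRCm38), the apical uptake transporter, had few reads in centre cells of both sites and rose in SI row >3 cells. Its normalised counts were 29.2, 2.76 and 0 in SI centre replicates 1 to 3, 26.0, 42.8 and 250 in border, and 432, 64.8 and 183 in row >3 cells. In the LI they were 0, 6.56 and 10.6 in centre, 5.50, 22.5 and 17.9 in border, and 19.1, 16.7 and 24.5 in row >3 cells. SI row >3 libraries were above all SI centre and all LI libraries, whereas SI and LI centre cells overlapped. SI row >3 cells exceeded centre cells 20.2-fold (log2 4.33, standard error 0.97, adjusted p = 0.00657). The log2 value was 3.38 without SI row >3 replicate 1 and 7.24 without SI centre replicate 1, and the call was lost with only the groups compared (adjusted p = 0.0981) and with an older edgeR fit (0.0558). Between the sites it was 3.46 in row >3 cells (standard error 0.89, adjusted p = 0.0375), and 830 reads in 3 SI libraries stood against 69 in 3 LI libraries. This last call was lost with adjusted p of 0.237 without SI row >3 replicate 1, of 0.113, 0.161 and 0.122 without LI row >3 replicate 1, 2 or 3, of 0.0556 with no filter on low counts, of 0.225 with the older fit and of 0.0986 without all SI libraries of replicate 1.

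Centre cells held too few Slc10a2 reads to place the sites in order: 39 reads in the SI, of which 36 came from replicate 1, and 22 in the LI. The site difference there was 0.77 on the log2 scale (standard error 1.48, adjusted p = 0.884), and -2.15 without SI centre replicate 1. In border cells the value was 2.90 (adjusted p = 0.171), with 238 of 282 SI reads in replicate 3, and 1.19 without that library. It was called in 1 of 17 alternatives, without all SI libraries of replicate 1 (log2 3.26, edgeR, adjusted p = 0.0357, 0.591% of all genes called). The border libraries of the sites did not overlap, with the lowest in the SI at 26.0 and the highest in the LI at 22.5.

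Fabp6 (ENSMUSG00000020405, chr11:43596049-43601540), the cytosolic bile acid binding protein, reached the highest normalised count of the 7 genes, in SI row >3 replicate 1. Its values were 259, 136 and 81.1 in SI centre, 928, 262 and 4007 in border, and 11237, 2561 and 6091 in row >3 cells. LI values were 0, 9.48 and 1.64 in centre, 0, 6.24 and 8.19 in border, and 42.8, 3.80 and 0.943 in row >3 cells. The lowest SI library was thus above the highest LI library, and within the SI the 3 levels followed each other with border and row >3 cells overlapping. Within each replicate the ratio of row >3 to centre was 43.3, 18.8 and 75.1. The fitted log2 fold change was 5.38 (standard error 0.99, adjusted p = 0.00202), and Fabp6 was called in all 17 alternatives to this fit, with adjusted p from 0.000128 to 0.0352.

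SI and LI differed in Fabp6 by 5.12 in centre (log2 scale, standard error 1.40, adjusted p = 0.078), 8.4 in border (1.34, 0.00467) and 8.68 in row >3 cells (1.22, 0.000666). The centre value was called in 5 of 17 alternatives, among them DESeq2 (adjusted p = 0.00501) and the fit without the SI libraries of replicate 3, at 5.46 (adjusted p = 0.0163). With only the groups compared in the fit the border and row >3 calls were lost, at adjusted p of 0.0919 and 0.0629. By pooled reads the SI to LI ratio was 36.0 for centre cells (95% exact interval 21.6 to 64.8), 400 for border cells (246 to 700.0) and 439 for row >3 cells (336 to 587), intervals that cover counting error only. The sizes of these differences turn on single libraries of both sites. With 1 library left out, the fitted centre difference was 7.17 without LI centre replicate 2 and otherwise lay between 4.57 (without SI centre replicate 1) and 5.44. The border difference was 6.75 without SI border replicate 3, 7.80 without LI border replicate 1 and 9.27 without LI border replicate 3. The row >3 difference was 11.23 without LI row >3 replicate 1 and 8.08 without SI row >3 replicate 1. Of the 53 LI row >3 reads, 47 came from replicate 1, and without that library the LI row >3 minus centre value turned from 1.82 to -0.73.

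Slc51a (ENSMUSG00000035699, chr16:32474504-32487879) and Slc51b (ENSMUSG00000053862, chr9:65412714-65422955) encode the 2 chains of the basolateral exporter. Slc51a stood at 69.7, 21.2 and 78.3 in SI centre, 161, 45.4 and 631 in border, and 1659, 360.1 and 907 in row >3 cells, and in the LI at 56.5, 31.3 and 49.1, then 38.5, 76.1 and 101, then 129, 117 and 141. Slc51b stood at 66.4, 32.2 and 99.8, then 187, 75.2 and 763, then 1187, 328 and 679 in the SI, and at 20.0, 55.4 and 67.9, then 13.8, 51.2 and 91.6, then 61.9, 72.1 and 119 in the LI. For both chains SI row >3 libraries were above every SI centre and LI library, while the sites overlapped in centre and border cells. Replicate 2 was the lowest library of each SI group for both genes.

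From SI centre to row >3 cells Slc51a rose 17.3-fold (log2 4.11, standard error 0.84, adjusted p = 0.00544) and Slc51b 11.1-fold (log2 3.47, standard error 0.85, adjusted p = 0.0151). Slc51b was no longer called without SI centre replicate 1 or 2 or SI row >3 replicate 1 (adjusted p = 0.0646, 0.07 and 0.0562). Without all SI libraries of replicate 1 neither chain was called (adjusted p = 0.0739 for Slc51a and 0.176 for Slc51b). In the LI the same differences were 1.53 for Slc51a (standard error 0.85, adjusted p = 0.805) and 0.76 for Slc51b (standard error 0.89, adjusted p = 0.969), and the 3 LI row >3 libraries of Slc51a, at 117 to 141, lay above the 3 centre libraries, at 31.3 to 56.5.

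Between the sites in row >3 cells Slc51a differed by 2.86 (standard error 0.77, adjusted p = 0.0584) and Slc51b by 3.07 (standard error 0.82, adjusted p = 0.0575), so both missed the threshold narrowly. Each was called in 9 of 17 alternatives, and without the SI libraries of replicate 3 at 2.97 and 3.17 (adjusted p = 0.00415 and 0.0033). In centre cells the site differences were 0.28 and 0.36, each with a standard error of 0.90. In border cells they were 1.94 and 2.66 (edgeR, adjusted p = 0.295 and 0.162), and 0.29 and 1.11 without SI border replicate 3. Each was called there in 2 of 17 alternatives, among them DESeq2 (adjusted p = 0.0467 and 0.0045), which called 4.55% of all genes. Slc51a overlaps Pcyt1a by 567 bases and Slc51b overlaps Rasl12 by 2140 bases, both on the opposite strand, and reads of the pairs cannot be told apart if counting ignored strand. Pcyt1a reached 1199 in SI row >3 cells and 1177 in LI row >3 cells, whereas Rasl12 did not exceed 17.2 in any group.

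Fgf15 (ENSMUSG00000031073, chr7:144896531-144900953), the bile acid induced hormone, was low throughout and depended on the replicate. SI centre libraries held 10.5, 0.921 and 14.9, border libraries 30.7, 0 and 60.0, and row >3 libraries 67.7, 0.790 and 96.8. No LI library exceeded 1.83, and the 9 LI libraries held 4, 3 and 2 reads in centre, border and row >3 cells. In replicates 1 and 3 each SI library was above each LI library, and in replicate 2 the SI libraries lay within the LI range. The replicate 2 libraries are also those with Ddx3y reads and, in the SI, those with the lowest sums of absorptive markers at each level. The part of either in the Fgf15 values was not tested.

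By pooled reads the SI to LI ratio of Fgf15 was 7.30 for centre cells (95% exact interval 2.57 to 28.5), 33.9 for border cells (11.1 to 168) and 80.0 for row >3 cells (21.8 to 666). These intervals cover counting error only and leave out the spread between libraries, such as the 1 read in SI row >3 replicate 2. Fitted SI minus LI values on the log2 scale were 2.75 for centre cells (standard error 1.71, adjusted p = 0.506), 4.87 for border cells (1.49, 0.0941) and 6.16 for row >3 cells (1.40, 0.00922). The border value was 3.38 without SI border replicate 3 (adjusted p = 0.472), and without SI border replicate 2 it was 5.50 and called (adjusted p = 0.0366). The row >3 call was lost without SI row >3 replicate 1 (adjusted p = 0.0738) or LI row >3 replicate 2 (0.0631), with only the groups compared (0.0511) and without all SI libraries of replicate 1 (0.114). Between the sites, border libraries of equal number correlated at 0.197, 0.271 and 0.184, which does not settle whether they are paired. With a replicate block over all libraries the border difference was called (log2 5.01, adjusted p = 0.00969), where 4.27% of all genes were called. That block also ties the centre and row >3 libraries of the sites, which correlated at 0.0196, 0.314 and 0.0798 and at -0.0296, 0.332 and 0.108. From SI centre to row >3 cells Fgf15 changed by 2.53 (standard error 0.86, adjusted p = 0.0525), with ratios of 6.43, 0.858 and 6.49 in replicates 1, 2 and 3. Gm26793, antisense to Fgf15 over 931 bases, had 20 reads in 1 SI border library and normalised values of 0 in the other groups.

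Abcc2 (ENSMUSG00000025194, chr19:43782192-43840740), the apical conjugate pump, separated the sites and not the levels. SI values were 886, 576 and 519 in centre, 639.9, 612 and 675 in border, and 905, 307 and 721 in row >3 cells. LI values were 15.3, 9.48 and 5.73 in centre, 2.75, 8.73 and 16.4 in border, and 13.7, 11.4 and 6.60 in row >3 cells. The lowest SI library, row >3 replicate 2 at 307, was far above the highest LI library at 16.4. The SI excess was 64.8-fold in centre, 62.2-fold in border and 57.7-fold in row >3 cells (log2 6.02, 5.96 and 5.85, standard errors 0.46, 0.47 and 0.45, adjusted p = 1.04e-07, 1.47e-07 and 5.18e-08). These calls held in all 17 alternatives at each level, the omission of the SI replicate 3 libraries included (log2 6.21, 5.93 and 5.82). The border value was 6.84 without LI border replicate 3, the highest of the LI border libraries.

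Within the SI Abcc2 differed by -0.047 between border and centre (standard error 0.32) and by -0.032 between row >3 and centre cells (standard error 0.32, adjusted p = 1). The row >3 to centre ratios within replicates were 1.02, 0.533 and 1.39, on either side of no change. In the LI the differences were 0.011 and 0.13 (standard errors 0.65 and 0.65) with border to centre ratios of 0.180, 0.922 and 2.86 in the replicates, at 32 to 37 reads per group.

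Abcc3 (ENSMUSG00000020865, chr11:94343295-94392997), the basolateral conjugate pump, was expressed at both sites. Its SI values were 1027, 928 and 1814 in centre, 1544, 1067 and 4234 in border, and 2901, 2185 and 5087 in row >3 cells. Its LI values were 2664, 1913 and 2021 in centre, 2803, 2351 and 2407 in border, and 3233, 2474 and 2903 in row >3 cells. The SI centre libraries lay just under the LI centre libraries, at most 1814 against at least 1913, and the sites overlapped in border and row >3 cells. The site difference was -0.86 in centre (standard error 0.45, adjusted p = 0.429), -0.18 in border (standard error 0.45, adjusted p = 0.974) and 0.19 in row >3 cells (standard error 0.45, adjusted p = 0.938).

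The SI libraries of replicate 3, those set apart by Car1, held the highest Abcc3 value at each SI level. Without them Abcc3 was lower in the SI in centre cells (log2 -1.18, adjusted p = 7.66e-05) and in border cells (log2 -1.0, adjusted p = 0.000815), and not in row >3 cells (log2 -0.18, adjusted p = 0.674). Within the SI the row >3 to centre ratios were 2.83, 2.35 and 2.80 in the 3 replicates, a fitted log2 value of 1.44 (standard error 0.46, adjusted p = 0.0563). This became a call without the SI replicate 3 libraries (log2 1.38, adjusted p = 1.96e-05), as it did with the replicate block. In the LI the ratios were 1.21, 1.29 and 1.44 (log2 0.39, standard error 0.45, adjusted p = 0.969). The interaction over sites was 1.05 (standard error 0.64, adjusted p = 0.891), and 1.0 (adjusted p = 0.0247) without the SI replicate 3 libraries.

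Absorptive cell markers moved with the same libraries. The summed normalised count of 9 absorptive markers (Alpi, Apoa1, Apoa4, Fabp1, Fabp2, Sis, Anpep, Krt20 and Slc5a1) was 9913, 4252 and 8393 in SI centre, 18592, 9850.4 and 27541 in border, and 64486, 19493 and 32912 in row >3 libraries. In the LI the sums lay between 3699.6 and 8372, with Apoa4 at 0 in all centre and row >3 libraries. From SI centre to row >3 cells 5 of the 9 were called higher (Alpi, Anpep, Fabp1, Krt20 and Sis) and 0 lower, where 13.2% of all genes were called. Between the sites 2, 6 and 6 of the 9 were higher in SI centre, border and row >3 cells and 0 lower, where 1.19%, 1.15% and 2.76% of all genes were higher. Row >3 replicate 1 and border replicate 3 were the highest of their SI groups for the marker sum and for Slc10a2, Fabp6, Slc51a and Slc51b. Among the single markers, Apoa1, Apoa4 and Fabp1 were higher in border replicate 1 (4205, 1462 and 937) than in border replicate 3 (3809, 595 and 602). The share of absorptive cells in each library was not measured, and in bulk libraries more cells of a type and more RNA per cell cannot be told apart. Goblet markers moved as well. Of 5, Muc2, Tff3, Fcgbp and Agr2 rose and Clca1 fell from SI centre to row >3 cells, where 13.2% of all genes were called. Their sums were 13656, 23469 and 201691 in SI centre, 178359, 84263 and 260280.0 in border, and at least 610338 in row >3 libraries. Their LI sums ran from 130115 to 206387 in centre and from 286394 to 461928 in row >3 libraries. Of 5 enteroendocrine markers 1 rose in the SI, Cck, which was at 0 in replicate 3. Sums of 4 tuft markers (Dclk1, Trpm5, Pou2f3 and Avil) were 528, 684 and 7695 in SI centre, 16963, 5359 and 8050 in border, and 6418, 6998 and 1613 in row >3 libraries. From SI centre to border 0 of the 4 were called and 2 had an unadjusted p under 0.05, as had 2399 of all 26717 genes. The part of these cells in the values of the 7 genes was not tested. The 5 Paneth markers summed to 4257 to 160057 in the SI and to at most 245 in the LI, and were lowest in the SI row >3 library of replicate 3.

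**Figure D3:**
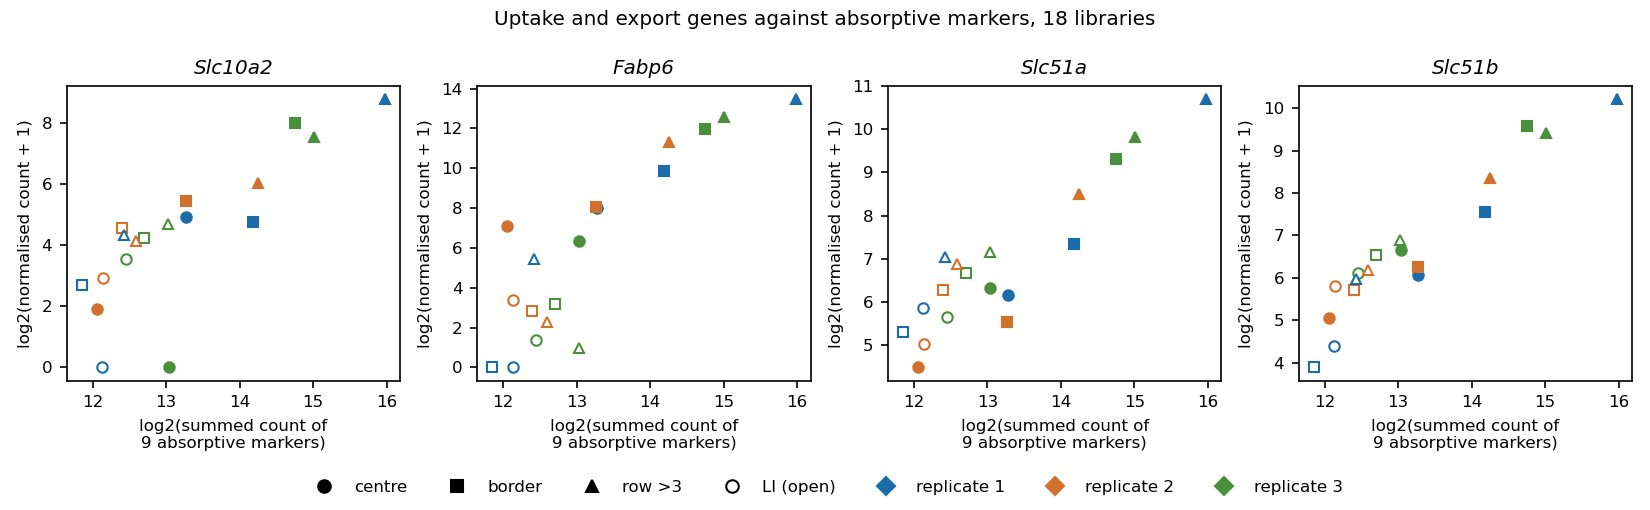
Each panel plots the log2(normalised count + 1) of 1 gene against the log2 of the summed normalised count of 9 absorptive markers, for 18 libraries. Shapes give the Lgr5 level, colours the replicate, and open symbols the LI. The SI border library of replicate 3 lies among the row >3 libraries in each panel, and LI libraries of Fabp6 lie below SI libraries of a like marker sum.

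Per kilobase of exon the order of the genes differed between the sites. On the scale of CPM per kb, which is counts scaled to the library total and divided by exon length, Fabp6 had the highest mean in each SI group, at 16.1 ± 9.18, 179 ± 210.2 and 677 ± 442 from centre to row >3 cells (mean ± SD, n = 3). Abcc3 was first in each LI group, at 19.5 ± 3.12, 22.3 ± 1.74 and 25.6 ± 3.02, and next to Fabp6 or Slc51b in the SI, at 10.8 ± 4.26, 19.7 ± 15.3 and 29.2 ± 13.5. Of the exporter chains, Slc51b was above Slc51a per kb in all groups, for instance at 50.4 ± 29.6 and 14.9 ± 9.90 in SI row >3 and at 6.05 ± 2.19 and 2.05 ± 0.185 in LI row >3 cells. Abcc2 stayed at 3.65 to 3.77 in the 3 SI groups and at 0.0557 to 0.0628 in the 3 LI groups. Slc10a2 and Fgf15 closed the SI order at 2.66 ± 2.19 and 0.887 ± 0.798 in row >3 cells, and those neighbours, like Fabp6 and Abcc3 in SI centre cells and Slc51b and Abcc3 in SI border and row >3 cells, did not differ beyond their spread.

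**Figure D4:**
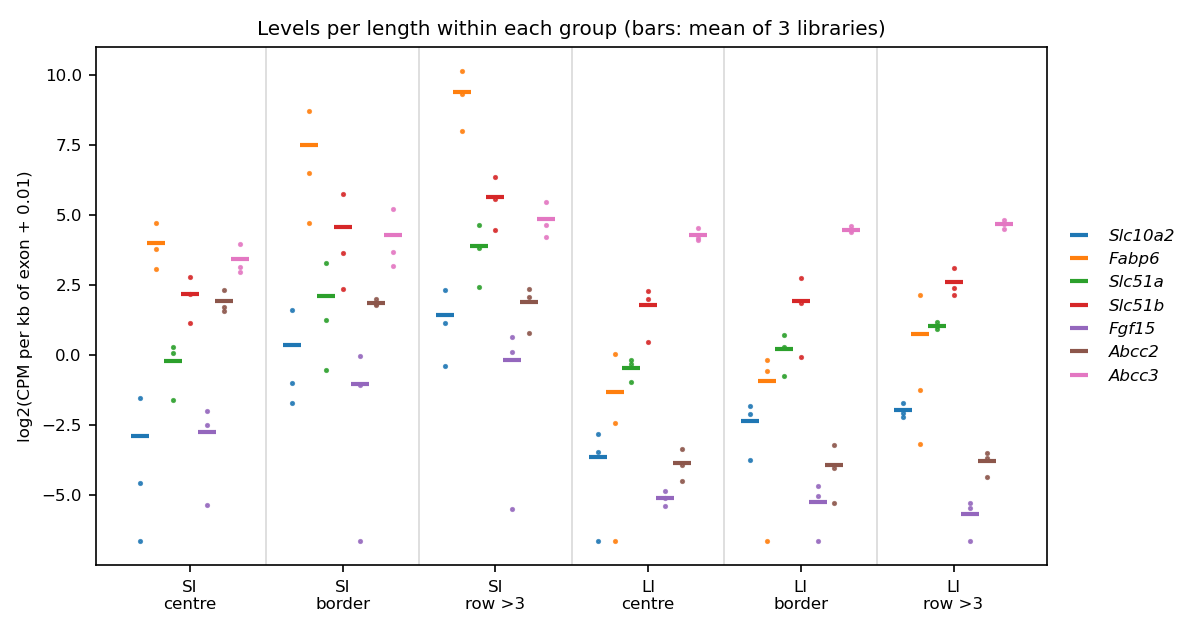
The vertical axis is log2(CPM per kb of exon + 0.01), the horizontal axis the 6 groups, dots are libraries and bars are means of 3 libraries. Fabp6 has the highest mean in each SI group, with centre libraries that overlap those of Abcc3, and Abcc3 tops each LI group, and Fgf15 is last in all LI groups.

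The other genes of the pathway were described by 43 genes in 5 lists, all of them tested. Of 11 receptors and regulators, 3 were higher in SI than LI centre cells, 3 in border and 4 in row >3 cells, where 1.19%, 1.15% and 2.76% of all genes were higher, and none was lower. Their medians were 0.35, 0.54 and 0.85 over the 11, 9 and 10 genes with more than 3 reads in a group, against 0 over all genes. Gata4, which marks the SI proximal to the ileal end, was at 130 to 304 in all SI libraries, at 1.18 in 1 LI library and at 0 in the other 8. With 1 LI centre read its SI to LI ratio was 472 (95% exact interval 84.3 to 18685), and with 0 reads in LI border and row >3 cells it was at least 192-fold and 286-fold higher in the SI, taking 3 reads over the group as the floor. Malrd1, known to raise Fgf15 production, was higher in the SI at each level (log2 2.33, 2.06 and 2.34, adjusted p = 0.000212, 0.00056 and 5.86e-05), as was Nr5a2, a nuclear receptor of bile acid synthesis genes (log2 0.79, 0.82 and 0.77, adjusted p = 0.0498, 0.0453 and 0.0368). Gata4 and Malrd1 were called in all 17 alternatives at each level, and Nr5a2 in 7 to 9 of them.

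Nr1h4 itself, the bile acid receptor, stood at 456, 431 and 440.2 in SI centre, 616, 455 and 1446 in border, and 1680.4, 968 and 1327 in row >3 cells, and at 316 to 742 in the LI. It was higher in SI row >3 than centre cells by 1.59 (standard error 0.32, adjusted p = 0.00268), with border and row >3 cells overlapping. Nr0b2 (SHP), a repressor that the receptor induces elsewhere, was at 21.1 in SI centre replicate 1 and at 0.921 or less in each other library. Of the 11 genes, 3 rose from SI centre to row >3 cells (Nr1h4, Nr1i3 and Rxra), where 7.35% of all genes rose, and 1 fell (Vdr, whose log2 value fell by 0.70). The median was 0.39. Without the SI libraries of replicate 3, Rxra was lower in SI than LI centre and border cells, and Nr1h4 and Hnf4a were higher in SI row >3 cells, where 10.9%, 8.10% and 12.2% of all genes were called in centre, border and row >3 cells. Rxra, the partner of Nr1h4, rose by 0.83 (adjusted p = 0.0477), was called in 9 of 17 alternatives, and was named with Nr1i3 and Vdr after its values had been seen.

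The receptor of the hormone fell in SI cells. Fgfr4, which binds Fgf15, was at 469, 368 and 505 in SI centre, 196, 311 and 246 in border, and 97.8, 66.3 and 147 in row >3 cells, so that centre and row >3 libraries did not overlap. It fell by 2.15 on the log2 scale (standard error 0.29, adjusted p = 7.4e-05) and was called in all 17 alternatives. In the LI it stood at 328 to 354 in centre and 134 to 222 in row >3 cells, and its change was not called (edgeR, log2 -0.84, adjusted p = 0.485, unadjusted p = 0.00616). The difference between the sites was -1.30 (edgeR, adjusted p = 0.374). Its co-receptor Klb did not exceed 28.2 in any library. Between the sites 0 of these 2 genes were called at any level by edgeR, with 0, 0 and 1 at an unadjusted p under 0.05. Of all genes 1.99%, 1.75% and 4.09% were called in centre, border and row >3 cells, and 3884, 3706 and 4193 had an unadjusted p under 0.05. Without the SI libraries of replicate 3, Fgfr4 was called lower in SI than LI row >3 cells (log2 -1.20, adjusted p = 0.00966), and its interaction of row >3 minus centre was called (-1.48, adjusted p = 0.0382), where 12.2% and 3.27% of all genes were called.

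Of 10 other transporters 0 were called between the sites at each level by edgeR, with 2, 1 and 3 at an unadjusted p under 0.05 in centre, border and row >3 cells. Over all genes 1.99%, 1.75% and 4.09% were called, and 3884, 3706 and 4193 of 26717 had an unadjusted p under 0.05. From SI centre to row >3 cells 2 of the transporters rose and 1 fell (median 0.11 over the 7 with more than 3 reads). Those that rose, named after their values had been seen, were Abcg2, an apical pump, by 1.52 (adjusted p = 0.0308, kept in 10 of 17 alternatives), and Slco2b1, an organic anion uptake carrier, by 1.66 (adjusted p = 0.00192). Abcc6 fell by 1.28 on the log2 scale (adjusted p = 0.0254, kept in 10 of 17). Of all genes 13.2% were called in this comparison. Without the SI libraries of replicate 3, Abcb1a was lower in the SI at each level, and Slco2b1 was higher and Abcc1 and Abcc4 lower in row >3 cells. In that fit 10.9%, 8.10% and 12.2% of all genes were called between the sites in centre, border and row >3 cells.

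Of 12 conjugation genes, 0 were called between the sites in centre cells by edgeR, with 3 at an unadjusted p under 0.05. Of all genes 1.99% were called there, and 3884 of 26717 had an unadjusted p under 0.05. Where 1.15% and 2.76% of all genes were higher in SI border and row >3 cells, 1 of the 12 was higher, Ugt2a3. This glucuronosyltransferase had 0 reads in the 9 LI libraries and 35, 37 and 140 reads in SI centre, border and row >3 cells, at least 11.4-, 17.9- and 46.1-fold higher against the same floor. Its border call was kept in 5 of 17 alternatives and its row >3 call in all 17. From SI centre to row >3 cells 2 of the 12 rose, Sult2b1 by 2.35 and Ugt2a3 by 1.94 (adjusted p = 0.0331 and 0.0368, kept in 10 and 7 of 17 alternatives), where 7.35% of all genes rose, and the list's median was 0.89. Between the sites most fitted values of the list lay below 0 (lower in the SI), with 3, 2 and 5 of the 12 above 0 and medians of -0.78, -0.94 and -0.17 for centre, border and row >3 cells. Sult1a1, a sulphotransferase, was at 8.21 to 84.2 in SI replicates 1 and 2, at 6073 to 9616 in the SI libraries of replicate 3 and at 7840 to 10692 in the LI. Without the SI libraries of replicate 3, 7, 6 and 5 of the 12 were lower in SI centre, border and row >3 cells, among them Sult1a1 (log2 -7.94, -7.40 and -8.52, adjusted p = 6.37e-08, 1.87e-07 and 3.32e-08). In that fit 10.9%, 8.10% and 12.2% of all genes were called. In the same fit Sult2b1 and Ugt2a3 were higher in SI than LI row >3 cells, and 6 of the 12 rose from SI centre to row >3 cells, where 17.1% of all genes were called. The Ugt1a genes of this list share exons, so that reads may be split between them. Of 8 synthesis genes, which act mainly in the liver, 1 was called by edgeR, Acox2, lower in SI than LI centre cells by 1.56 on the log2 scale (adjusted p = 0.0263, kept in 8 of 17 alternatives). Of all genes 1.99% were called in that comparison. In the other comparisons described here 0 of the 8 were called by edgeR, with 3 at most at an unadjusted p under 0.05. Without the SI libraries of replicate 3, Hsd3b7 was called higher in SI than LI row >3 cells (log2 0.74, adjusted p = 0.0319), where 12.2% of all genes were called.

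**Figure D5:**
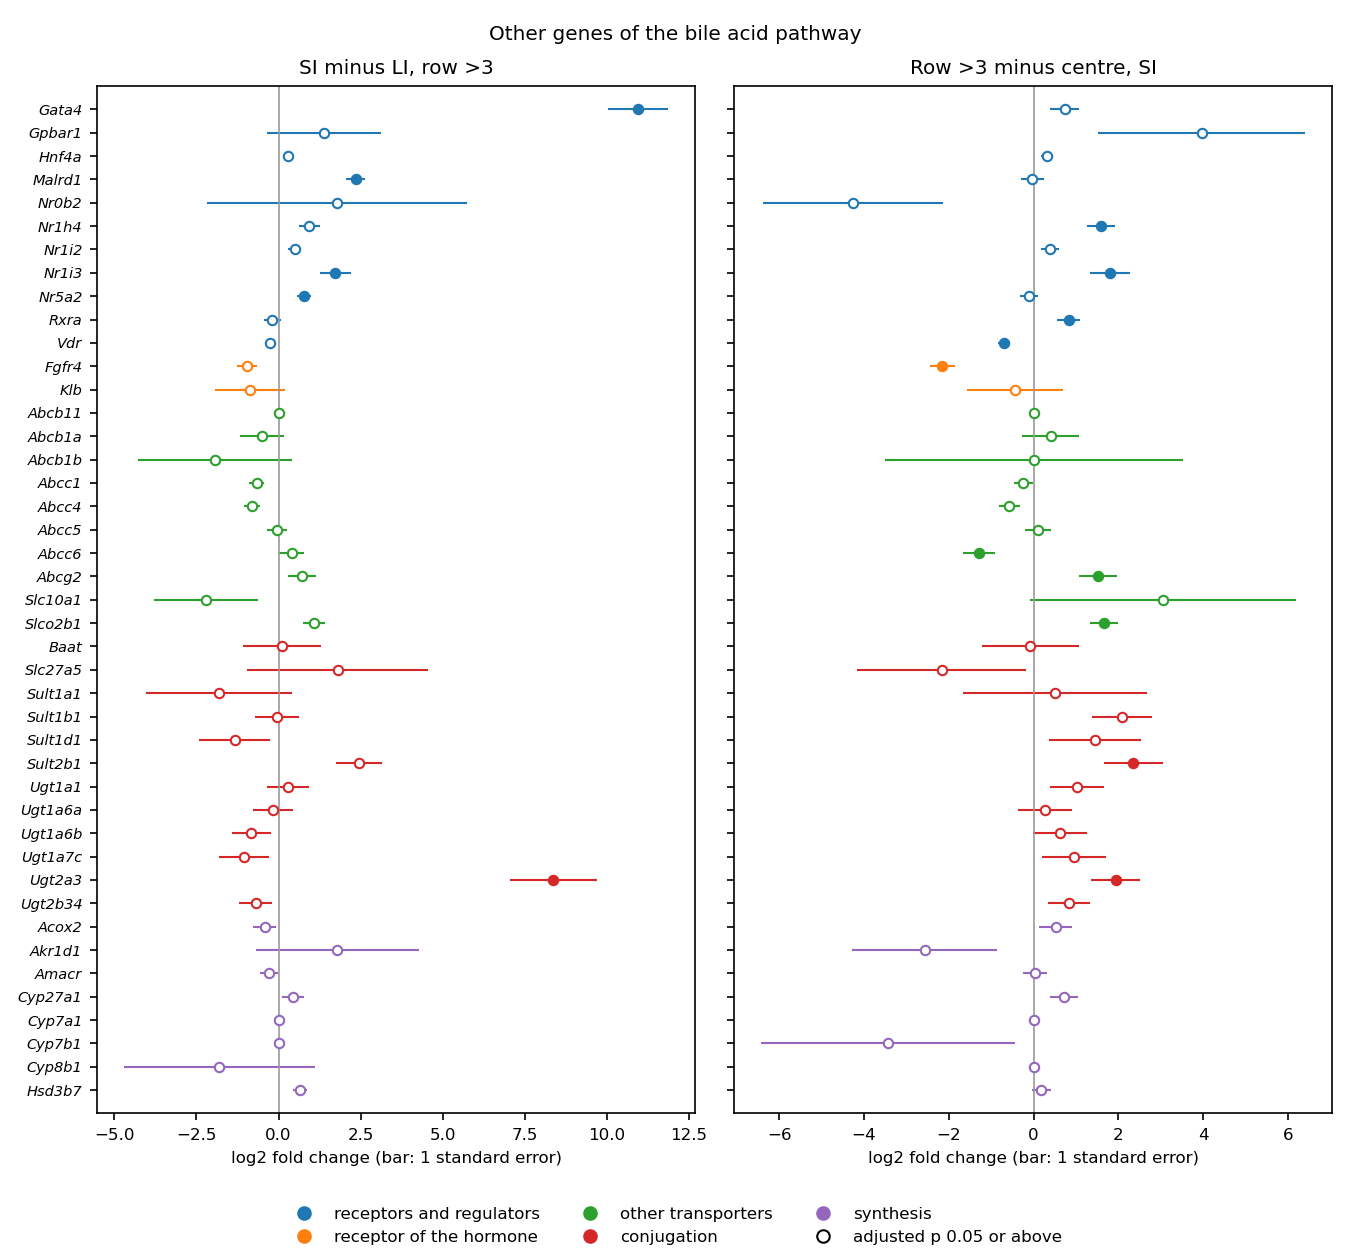
The 43 other pathway genes are listed down the side, coloured by list, with the log2 fold change and 1 standard error between SI and LI row >3 cells on the left and between SI row >3 and centre cells on the right. Filled circles have an adjusted p under 0.05. Gata4 and Ugt2a3, both at 0 in LI row >3 cells, have fitted values that depend on the prior count, and genes without reads in either group stand at 0.

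Over the 18 libraries, which share the sites, levels and mice of the design, the course of each gene was compared with that of 14251 genes with a mean normalised count of at least 10, as Pearson's r of log2(CPM + 1) and as a description only. Among the 7 genes r was 0.95 between Slc51a and Slc51b, 0.92 between Slc10a2 and each of them, 0.87 between Fabp6 and Slc51b, 0.84 between Fabp6 and Abcc2, and 0.81 between Fabp6 and Slc51a. With 14251 genes to choose from, each of the 7 had a closer match outside the group than within it. Such a search is all but bound to find one, so it does not bear on whether the 7 belong together. Outside the 7 genes, Fabp6 was most like Enpep, an aminopeptidase (r = 0.98), Gm10499 (0.98) and St3gal4 (0.98). Slc10a2 was most like Dpep1 (0.95), Muc3 (0.94) and Btnl7-ps (0.93), Slc51a most like Mall (0.98), Coro2a (0.96) and Cyp4f14 (0.96), and Slc51b most like Fmo5, Akr1b7 and Oas3 (each 0.96). Fgf15 was most like Fam151a (0.96), Gpr133 (0.96) and Cyp3a25 (0.94).

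Of the conjugate pumps, Abcc2 was most like Ccl25, a chemokine of the SI (r = 0.99), and the sterol transporters Abcg5 and Abcg8 (each 0.98). Abcc3 was most like Epas1 (0.97), Kbtbd11 (0.96) and the receptor partner Rxra (0.96). Between Abcc2 and Abcc3 r was -0.30, and r of Abcc3 was 0.14 with Fabp6 and 0.61 with Slc51a.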

How the data were processed

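RNA of EPCAM+ cells sorted by GFP level was sequenced as paired reads with a stranded kit, 18 libraries in 6 groups of 3. Trimming and alignment to mm10 were done by the authors, who deposited raw counts for each gene. The annotation release and the strand setting were not given in the sources used here. The deposited normalised table holds a signal, the counts divided by DESeq2 size factors, for 24814 genes. Groups came from the labels. Raw counts were tested with edgeR 4.0.16 (R 4.3.3): TMM factors, genes with a mean count above 0, a robust quasi-likelihood fit over all 6 groups (12 residual degrees of freedom), and Benjamini-Hochberg adjustment at 0.05 in each of 9 comparisons. Total counts were 8312093 to 31940965 per library. The reads carry no molecular identifiers that were counted, so intervals (exact binomial, 95%) cover counting error only. A group at 0 was set to a floor of 3 reads.

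Gene positions and exon lengths came from GENCODE M21 on GRCm38 (42462 gene identifiers matched), and promoters from RefSeq for 5 of the 7 genes. The named genes were the 7 members in each comparison, Nr1h4, Nr0b2 and Gata4, pathway genes called in at least 2 of the 3 site comparisons, and the 3 genes most correlated with each member. Other pathway genes were named after their values had been seen. The members and lists were chosen with earlier results of these data known. Where libraries of 2 groups are said not to overlap, the share of all genes that separate in the same way was not counted. Deviations from the group means of libraries with equal replicate numbers correlated at 0.358 to 0.783 within the SI, 0.444 to 0.684 within the LI and -0.1 to 0.438 between sites (10223 genes). Equal numbers therefore pair libraries within a site. Between sites the border libraries correlated at 0.197, 0.271 and 0.184. SI border libraries correlated with LI centre libraries (0.13, 0.268 and 0.153) and LI row >3 libraries (0.139, 0.438 and 0.151) as well. Whether equal numbers pair libraries between sites is therefore not settled. Alternatives were DESeq2 1.42.0, other filters and scalings, smaller fits, a replicate block, each library left out, and the SI libraries of 1 replicate left out. Leaving out all SI libraries of replicate 1 or 2, and an older form of the edgeR fit, were chosen after seeing the data. Of the gene lists 3 genes are not reported here, and sums and counts leave them out.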

Additional observations from a re-analysis of the deposited data

How the results depend on the processing

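Counts of the 7 genes called moved as follows. For SI minus LI in centre cells (1 called) the count was 2 with DESeq2, with edgeR's filterByExpr, with only the groups compared and with the replicate block over all libraries, and 3 without the SI libraries of replicate 3. In border cells (2 called) it was 5 with DESeq2 and without the SI libraries of replicate 2, 3 with the replicate block over all libraries and without the SI libraries of replicate 1 or 3, 2 to 3 with 1 library left out (3 without SI border replicate 2), and 1 with only the groups compared. In row >3 cells (4 called) it was 6 with DESeq2, filterByExpr, RLE factors, library size only, the replicate block and without the SI libraries of replicate 2 or 3, 3 with no filter and the older fit, 2 without those of replicate 1, and 2 to 6 with 1 library left out. For SI border minus centre (0 called) it was 1 with DESeq2, 4 with the replicate block and 0 to 1 with 1 library left out. For SI row >3 minus centre (4 called) it was 6 with filterByExpr, the replicate block and without the SI libraries of replicate 2, 5 with DESeq2, RLE factors, library size only and without those of replicate 3, 3 with only the groups compared and the older fit, 2 without those of replicate 1, and 3 to 6 with 1 library left out. For LI row >3 minus centre (0 called) it was 1 with only the groups compared. For the interaction of row >3 minus centre (0 called) it was 1 with the replicate block and 1 without the SI libraries of replicate 3. In row >3 cells the block over all libraries gave 2.70 for Slc51a and 3.11 for Slc51b, both called. The replicate block within a site changed no other call than those given in the results. Signs turned only where the reported value was not called. Without the SI libraries of replicate 3 these were Slc51b in centre (-0.029), Abcc3 in row >3 (-0.18) and the border interaction of Slc10a2 (-0.10). Without those of replicate 1 they were Slc10a2 in centre (-2.13), Abcc3 in border (0.025), Abcc2 for SI border minus centre (0.22) and its interaction (0.20). Without those of replicate 2 they were Abcc3 in border (0.14), Abcc2 for SI row >3 minus centre (0.22) and its interaction (0.073). Abcc2 was at 0.011 for SI border minus centre with the replicate block, at -0.052, -0.014 and -0.033 for LI border minus centre with DESeq2, library size only and the older edgeR fit, and at 0.010 for the border interaction with DESeq2. With 1 library left out, site differences ranged from -2.15 to 1.42 for Slc10a2 and -0.0425 to 0.69 for Slc51b in centre, -1.04 to 0.17 for Abcc3 in border and -0.22 to 0.43 in row >3 cells. Abcc2 ranged from -0.21 to 0.22 and -0.37 to 0.31 in the SI, -0.87 to 0.47 and -0.15 to 0.45 in the LI, and -0.51 to 0.82 and -0.51 to 0.18 in the interactions, for border and row >3 minus centre in turn. LI border minus centre ranged from -0.70 to 0.58 for Slc51b, -0.68 to 2.23 for Fabp6 and -1.11 to 0.39 for Fgf15, LI row >3 minus centre from -0.73 to 3.85 for Fabp6, and the border interaction from -0.18 to 1.02 for Abcc3. The causes were not tested. Of 1113 refits of single genes, 995 kept direction and side of the threshold. Over all genes tested, calls ranged from 144 to 2854 (532 as reported) in centre, 138 to 2121 (468) in border and 344 to 3184 (1092) in row >3 cells between sites, 0 to 620 (3) and 701 to 6103 (3518) within the SI, 0 to 692 (5) for LI row >3 minus centre, and 0 to 42 (0) and 0 to 857 (0) in the interactions. Library size alone moved the median of all genes by -0.16 in the SI and -0.11 in the LI for row >3 minus centre. Depth limits Fgf15 in the LI, at 2 to 4 reads per group, and Slc10a2 in centre cells.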
